A study of Mus musculus with 33 samples.

Results

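The autophagy machinery was followed here through 38 genes of the 48795 in the deposited table, chosen by symbol to cover initiation, membrane supply, conjugation, cargo reception and fusion. They were read in 33 subcutaneous tumours of 20 male FVB mice, which carry an intact immune system. The tumours grew from Myc-CaP, a cell line from a prostate tumour of a MYC-transgenic mouse, injected into both flanks. All tumours therefore share 1 line and its MYC transgene. Dosing started once tumours reached 50 mm3 and lasted 3 weeks. The ESK981 group (8 tumours of 5 mice) was dosed by gavage at 15 mg/kg on 5 days a week, and ESK981 inhibits several tyrosine kinases as well as PIKfyve, a lipid kinase. The combination group (8 tumours of 5 mice) had ESK981 together with anti-PD-1, an antibody against the T cell checkpoint receptor PD-1, injected at 200 µg per mouse 3 times a week. The anti-PD-1 group (7 tumours of 5 mice) had the antibody alone, and the vehicle group (10 tumours of 5 mice) had neither agent. Mice without ESK981 were gavaged with its vehicle, and mice without anti-PD-1 were injected with an isotype control antibody. No source used here gives the ages of the mice. Tumours are named by group, mouse number and flank, as in vehicle 5R, and mouse numbers pair nothing across groups.

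Autophagy encloses cytoplasm in a double membrane and delivers it to the lysosome. The ULK kinase complex starts the process, a class III PI3-kinase complex built on beclin 1 marks the site with the lipid PI3P, ATG9 and ATG2 proteins bring membrane and lipid, and 2 ubiquitin-like reactions couple ATG8 proteins such as LC3 to that membrane. Receptors that bind both cargo and ATG8 proteins select what is enclosed, and SNARE proteins with a tether then fuse the vesicle with the lysosome. PIKfyve phosphorylates PI3P further on endosomes and lysosomes, and its inhibition is known to swell these compartments and to hold back late steps of autophagy. The files hold transcript levels, and flux through the pathway was not analysed here.

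Levels are in FPKM (fragments per kilobase of exon and per 1000000 fragments). The mouse was the unit of comparison, differences are given as log2 fold changes ± SE on the scale log2(FPKM + 0.5), and the words rose and fell are kept for genes with an adjusted p below 0.05 in limma, taken over the 15846 genes tested. In units of 1000000 fragments, libraries of the ESK981 group held 18.1 to 32.4, those of the combination 17.8 to 24.8, those of anti-PD-1 11.3 to 24.2 and those of vehicle 9.90 to 18.4. The share of fragments on 3 genes lying on ribosomal RNA sequence had a median of 3.49% in ESK981 tumours, 5.79% in combination tumours, 7.34% in anti-PD-1 tumours and 18.5% in vehicle tumours. The flow cell code in the library names was the same for all 23 treated tumours and vehicle 5R. The other 9 vehicle tumours carried another code. Vehicle mice, mouse 5 among them, also have animal numbers in the sample titles from a series apart from that of all treated mice. In every comparison with vehicle the treatment therefore cannot be told apart from the flow cell or from this animal series. The last digit of the library names, read here as the lane, was 6 for all anti-PD-1 tumours. It was 4 or 5 for combination tumours and 3 or 4 for ESK981 tumours. Among epithelial markers, Krt8 (3.73 to 117 FPKM) was present in all 33 tumours, while Krt18 and Cdh1 stayed at or under 1.42 and 0.860 FPKM and Epcam had a median of 0. These are bulk samples, in which fewer cells of a type and less RNA per cell cannot be told apart.

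Of the 38 members, 37 reached an FPKM of 0.5 in at least 5 tumours and were tested. Optn (optineurin, a receptor for damaged mitochondria and bacteria) did not. The highest levels, as medians over 33 tumours, were those of Sqstm1 (39.9 FPKM), Gabarap (24.4 FPKM), Vamp8 (19.8 FPKM) and Nbr1 (11.6 FPKM), and the lowest were those of Atg7 (1.59 FPKM), Atg10 (1.14 FPKM) and Optn (0.209 FPKM).

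In ESK981 tumours 4 members rose against vehicle and none fell: Rb1cc1, Ulk2 and Atg13 of the initiation complex and the cargo receptor Nbr1. That is 4 of 37, where 14.4% of all genes tested were called in this comparison (8.95% higher and 5.43% lower), so the share of members called was near that of genes at large. Estimates were above 0 for 28 of 37 members and for 9896 of all 15846 genes tested, with a median of 0.19 for the members beside 0.11 over all genes. No member was called by limma for the combination against vehicle (0.606% of all genes called) or for anti-PD-1 against vehicle (0.783%). At an unadjusted limma p under 0.05 there were 4 members and 1970 of all 15846 genes for the combination. For anti-PD-1 there were 5 members and 2089 genes. The medians there were 0.025 and 0.13, for the members and for all genes alike. These 3 comparisons share the vehicle mice. Between groups that share 1 flow cell but differ mostly in lane, no member and no other gene was called. This held for the combination against anti-PD-1 and against ESK981, both with 0% of all genes called. At an unadjusted limma p under 0.05 there were 1 member and 942 genes against anti-PD-1, and 7 members and 1226 genes against ESK981. Mice of the 2 groups did not overlap for 4 members in ESK981 against vehicle (Rb1cc1, Nbr1, Ulk2 and Atg3), where 15.5% of all genes did not. For no member was this so in the combination against vehicle (1.88% of all genes), anti-PD-1 against vehicle (3.67%), the combination against anti-PD-1 (0.726%) or the combination against ESK981 (0.827%).

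**Figure D1:**
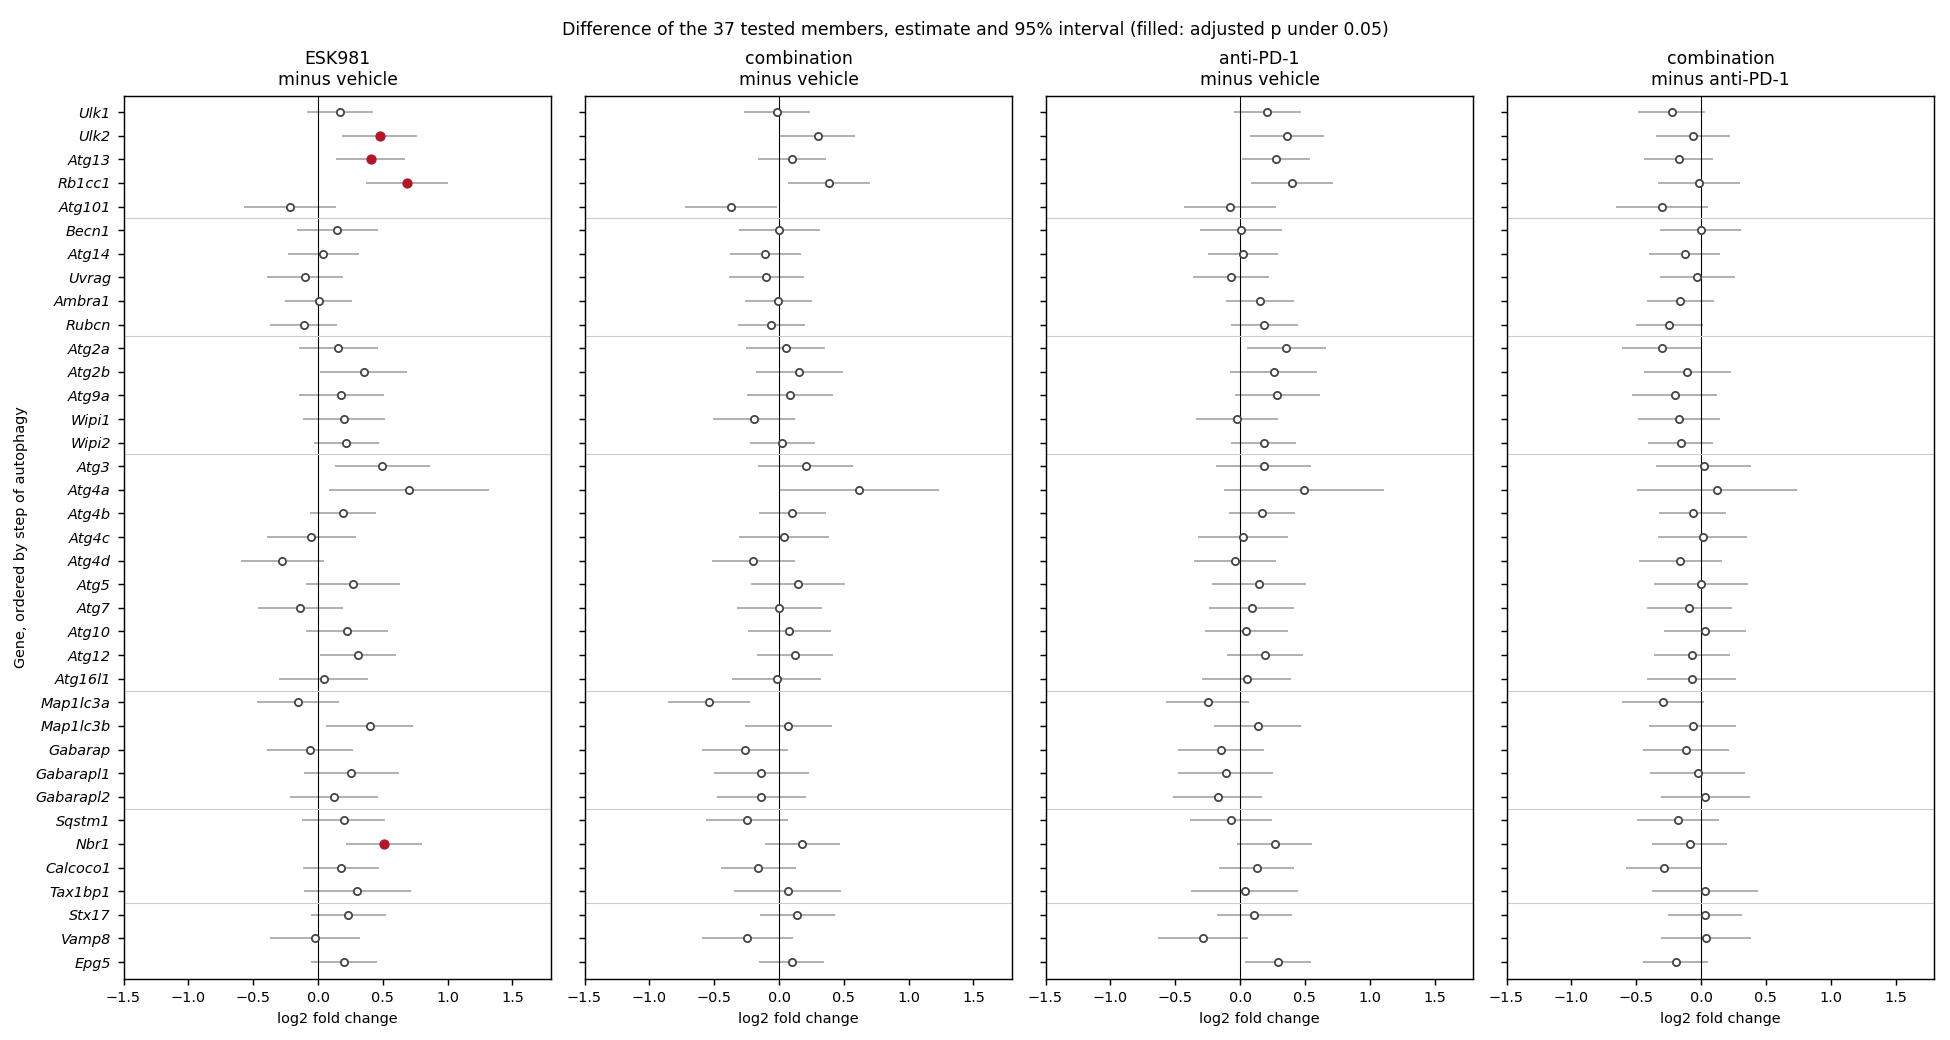
Log2 fold change of each of the 37 tested members in 4 comparisons, with 95% intervals, ordered by step (grey lines divide the steps); filled points have an adjusted p under 0.05. Rb1cc1, Ulk2, Atg13 and Nbr1 are filled for ESK981 minus vehicle, and no member is filled in the other 3 panels.

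The ULK complex held 3 of the 4 called members. Rb1cc1 (chromosome position chr1:6206197-6276648, GRCm38, GENCODE M21 annotation) encodes FIP200, the large scaffold of the complex, and its exons overlap an antisense gene. In mice 1 to 5 it stood at 5.89, 5.23, 4.01, 5.84 and 5.68 FPKM with ESK981 and at 4.52, 3.71, 4.54, 5.71 and 2.92 FPKM with the combination. It stood at 4.78, 4.24, 4.37, 3.59 and 4.43 FPKM with anti-PD-1 and at 3.61, 2.99, 3.18, 3.45 and 2.35 FPKM with vehicle. Every ESK981 mouse was above every vehicle mouse, while the other 2 treated groups overlapped vehicle. Means were 5.33 ± 0.781 FPKM in ESK981 mice and 3.12 ± 0.490 FPKM in vehicle mice (SD, n = 5 mice each), a log2 fold change of 0.69 ± 0.15 or 1.61-fold (limma adjusted p = 0.00826). The difference was 0.39 ± 0.15 for the combination against vehicle (adjusted p = 0.300) and 0.40 ± 0.15 for anti-PD-1 against vehicle (adjusted p = 0.241). It was -0.013 ± 0.15 for the combination against anti-PD-1, with a 95% interval of -0.33 to 0.30.

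Ulk2 (chr11:61775649-61855073, minus strand), one of the 2 kinases of the complex, also rose in ESK981 tumours. It stood at 6.66, 7.12, 5.11, 6.77 and 6.45 FPKM in ESK981 mice and at 6.58, 5.23, 5.86, 6.11 and 4.39 FPKM in combination mice. It stood at 6.88, 6.22, 5.93, 4.72 and 6.07 FPKM in anti-PD-1 mice and at 5.08, 4.58, 4.39, 5.00 and 3.44 FPKM in vehicle mice. The lowest ESK981 mouse was just above the highest vehicle mouse, and the log2 fold change was 0.48 ± 0.14 (limma adjusted p = 0.0280). The combination and anti-PD-1 groups differed from vehicle by 0.30 ± 0.14 and 0.36 ± 0.14, at adjusted p = 0.384 and 0.244.

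Atg13 (chr2:91674618-91710576, minus strand), the adaptor through which the kinases bind FIP200, rose by 0.41 ± 0.13 in ESK981 tumours (limma adjusted p = 0.0383). Its values were 6.39, 7.29, 5.31, 7.05 and 5.76 FPKM in ESK981 mice and 5.16, 5.05, 5.54, 5.43 and 3.86 FPKM in combination mice. They were 6.04, 5.71, 6.45, 4.86 and 5.44 FPKM in anti-PD-1 mice and 5.03, 4.11, 4.58, 5.52 and 4.03 FPKM in vehicle mice. ESK981 mouse 3 lay below vehicle mouse 4, so the groups overlapped.

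Ulk1, the better known kinase of the pair, was not called in any comparison. It stood at 4.63, 4.98, 5.47, 5.60 and 4.76 FPKM in ESK981 mice and 4.95, 5.19, 4.83, 3.78 and 3.52 FPKM in combination mice. It stood at 5.71, 4.89, 5.68, 4.35 and 5.69 FPKM in anti-PD-1 mice and 5.11, 4.45, 4.70, 4.46 and 3.73 FPKM in vehicle mice. All 4 groups overlapped, and ESK981 minus vehicle was 0.17 ± 0.12 (95% interval -0.09 to 0.43, adjusted p = 0.359). Atg101, which stabilises ATG13, averaged 6.06 ± 1.67 FPKM in ESK981 mice and 7.01 ± 1.12 FPKM in vehicle mice (SD, n = 5 mice each), a difference of -0.22 ± 0.17 (adjusted p = 0.399). It lay below 0 in all 3 comparisons with vehicle, at -0.37 for the combination and -0.07 for anti-PD-1. Estimates within the complex were thus not all on 1 side of 0.

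**Figure D2:**
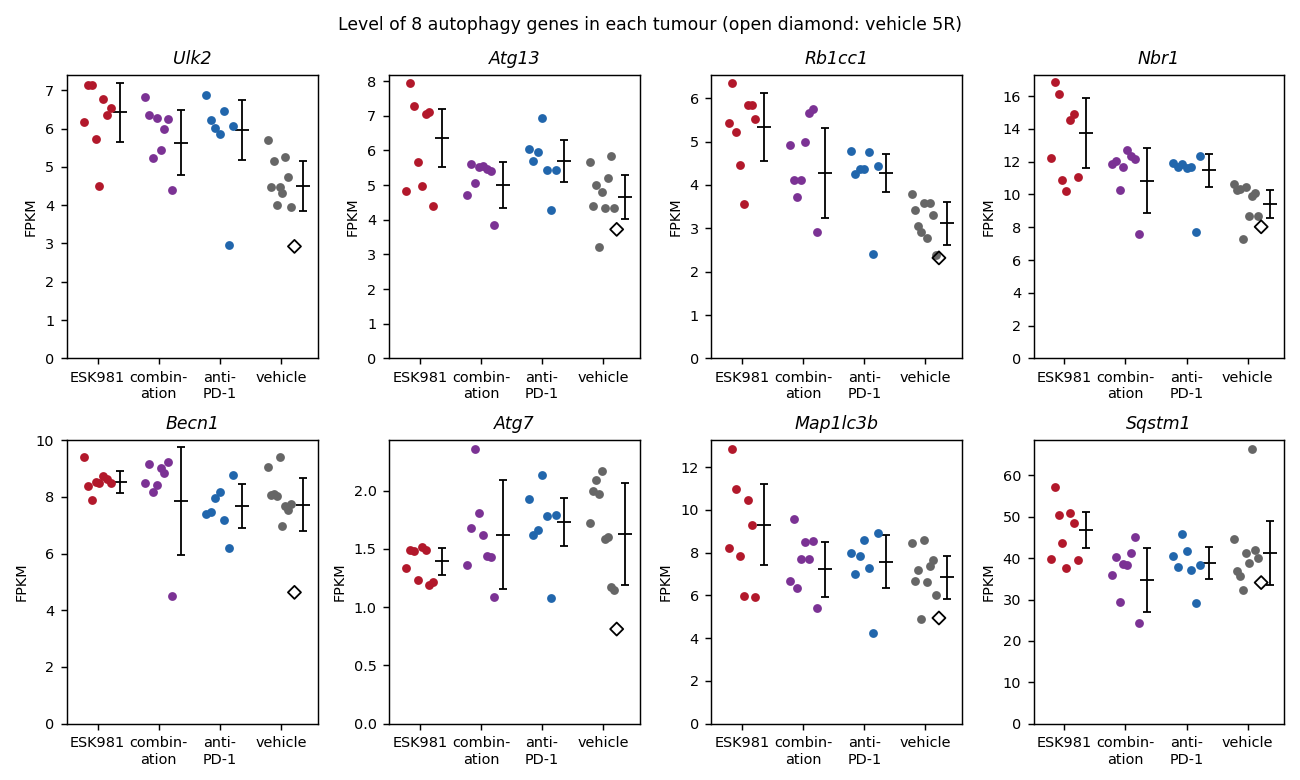
Level in FPKM of the 4 called members (upper row) and of Becn1, Atg7, Map1lc3b and Sqstm1 (lower row) in each of the 33 tumours; bars at the side give the mean and SD over 5 mice. For Rb1cc1 the ESK981 points sit mostly above the vehicle points, while for Becn1 and Sqstm1 the groups overlap; vehicle 5R, the open diamond, is the lowest vehicle tumour for Ulk2, Rb1cc1, Becn1 and Atg7.

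The promoters of called members were read because these genes rose in the same comparison, and that of Atg3 because it holds the 8-base element TCACGTGA. This element and its core CACGTG are the letters bound by MiT/TFE factors such as TFEB, which control many lysosomal and autophagy genes, and CACGTG is also the core bound by MYC with MAX. Each sequence is the 250 bases before the gene start of the RefSeq table (GRCm38.p6), 5′ to 3′ on the gene's strand, with matches to CACGTG or TCACGTGA in capitals.
Ulk2, chr11:61855093-61855342, minus strand: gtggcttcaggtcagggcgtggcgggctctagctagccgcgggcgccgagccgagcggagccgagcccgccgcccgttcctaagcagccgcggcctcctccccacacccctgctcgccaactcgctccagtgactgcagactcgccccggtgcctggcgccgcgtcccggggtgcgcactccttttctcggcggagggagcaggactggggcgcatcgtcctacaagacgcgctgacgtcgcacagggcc
Atg13, chr2:91710593-91710842, minus strand: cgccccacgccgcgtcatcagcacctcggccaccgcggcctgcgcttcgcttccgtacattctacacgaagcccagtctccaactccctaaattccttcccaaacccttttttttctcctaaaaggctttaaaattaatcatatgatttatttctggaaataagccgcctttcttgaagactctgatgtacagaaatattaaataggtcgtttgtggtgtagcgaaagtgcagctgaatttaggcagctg
Nbr1, chr11:101551857-101552106, plus strand: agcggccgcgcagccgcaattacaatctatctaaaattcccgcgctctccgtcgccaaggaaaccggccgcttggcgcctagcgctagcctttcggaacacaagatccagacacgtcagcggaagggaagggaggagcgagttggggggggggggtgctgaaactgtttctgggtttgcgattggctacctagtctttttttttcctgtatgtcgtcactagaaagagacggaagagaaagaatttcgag
Atg3, chr16:45158579-45158828, plus strand: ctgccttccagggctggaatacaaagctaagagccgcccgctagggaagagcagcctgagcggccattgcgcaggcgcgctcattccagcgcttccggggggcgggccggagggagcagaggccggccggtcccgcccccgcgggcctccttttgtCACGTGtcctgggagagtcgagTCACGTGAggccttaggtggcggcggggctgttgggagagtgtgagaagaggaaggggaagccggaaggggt
In Atg3 the CACGTG cores begin 94 and 71 bases before the start, and the second is part of TCACGTGA. The windows of Ulk2, Atg13 and Nbr1 hold neither. The table had 37 promoters for 32 of the 38 members and none for Rb1cc1, Becn1, Atg12, Atg16l1, Map1lc3a and Epg5. Motifs were counted over the whole promoter entries, which run past the gene start and so are longer than the 250 bases printed. CACGTG, which reads the same on both strands, was in 5 of the 37 promoters (13.5%, those of Atg3, Atg5, Atg7, Atg14 and Rubcn), and in 7.15% of all 32851 promoters of the table. TCACGTGA, which also reads the same on both strands and contains CACGTG, was in 1 (2.70%), and in 0.974% of all promoters. A match is a string of letters and not a measured site, and none of the 5 genes whose promoters hold CACGTG was called in any of the 6 comparisons on FPKM as deposited, though Atg3 was after rescaling.

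None of the 5 genes of the beclin complex and its regulators was called in any comparison, and their estimates for ESK981 minus vehicle ran only from -0.11 (Rubcn, rubicon, an inhibitor of the UVRAG-containing complex) to 0.15 (Becn1). Becn1 stood at 8.90, 7.89, 8.51, 8.72 and 8.55 FPKM in ESK981 mice and 8.84, 8.18, 8.72, 9.02 and 4.51 FPKM in combination mice. It stood at 7.41, 7.48, 8.07, 6.70 and 8.78 FPKM in anti-PD-1 mice and 8.56, 8.07, 8.20, 7.61 and 6.19 FPKM in vehicle mice. Combination mouse 5, at 4.51 FPKM, lay far below the other 4 of its group, and the 95% interval of ESK981 minus vehicle was -0.17 to 0.46. Atg14, which directs the complex to sites of autophagosome formation, averaged 1.97 ± 0.315 FPKM in ESK981 mice and 1.88 ± 0.134 FPKM in vehicle mice. Uvrag, the endosomal partner of beclin, averaged 2.25 ± 0.110 FPKM in ESK981 mice and 2.48 ± 0.361 FPKM in vehicle mice. Ambra1, which links the ULK and beclin complexes, averaged 5.79 ± 0.380 FPKM in ESK981 mice and 5.86 ± 0.786 FPKM in vehicle mice (SD, n = 5 mice each throughout).

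The 5 genes of membrane supply and PI3P reading were all above 0 for ESK981 minus vehicle, but none passed the test. Atg2b, one of the 2 ATG2 lipid transfer proteins, had the largest estimate of this step at 0.35 ± 0.16 (limma adjusted p = 0.139), with 8.95 ± 0.517 FPKM in ESK981 mice and 7.06 ± 1.41 FPKM in vehicle mice. Atg2a, the other ATG2 gene, differed by 0.16 for ESK981 and by 0.36 for anti-PD-1 against vehicle (adjusted p = 0.486 and 0.287). Atg9a, the membrane-spanning lipid scramblase, differed by 0.18 for ESK981 minus vehicle. Wipi1 and Wipi2, which bind PI3P and of which WIPI2 recruits the LC3 conjugation machinery, differed by 0.20 and 0.22. For Wipi1 the combination stood -0.39 ± 0.15 from ESK981 alone, with an unadjusted p of 0.0173 and an adjusted p of 0.602.

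Of the 10 conjugation genes none was called, 7 lay above 0 and 3 below for ESK981 minus vehicle. Atg3, the E2-like enzyme that hands ATG8 proteins to lipid, came closest. It stood at 13.4, 12.3, 9.92, 11.9 and 12.0 FPKM in ESK981 mice, each above all 5 vehicle mice at 8.79, 8.25, 9.85, 8.14 and 6.75 FPKM. Its difference was 0.50 ± 0.18 with an adjusted p of 0.0606 in limma. Atg4a, one of 4 proteases that trim ATG8 proteins, had the largest estimate of all members at 0.70 ± 0.30 but also the widest interval, 0.08 to 1.32 (adjusted p = 0.110). Its mice ran from 4.65 to 13.3 FPKM with ESK981 and from 3.32 to 7.80 FPKM with vehicle. The related protease Atg4d lay on the other side of 0, at -0.28 ± 0.15 (adjusted p = 0.221), while Atg4b and Atg4c differed by 0.19 and -0.05.

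Atg7, the E1-like enzyme that activates ATG12 and the ATG8 proteins, was among the lowest members. It stood at 1.41, 1.48, 1.37, 1.49 and 1.20 FPKM in ESK981 mice and 1.52, 2.36, 1.71, 1.43 and 1.09 FPKM in combination mice. It stood at 1.93, 1.62, 1.90, 1.43 and 1.79 FPKM in anti-PD-1 mice and 1.86, 2.03, 1.88, 1.39 and 0.979 FPKM in vehicle mice. ESK981 mice lay close together inside the spread of vehicle mice, and the difference was -0.14 ± 0.16 (95% interval -0.47 to 0.19, adjusted p = 0.578). The ATG12 branch, made of Atg10 (its E2-like enzyme), Atg12, Atg5 and Atg16l1, differed between ESK981 and vehicle by 0.22, 0.31, 0.27 and 0.04 in that order of genes, with adjusted p-values of 0.328, 0.139, 0.302 and 0.885.

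The ATG8 family gave no call either. Map1lc3b, which encodes LC3B, the standard protein marker of autophagosomes, stood at 10.5, 11.0, 6.91, 10.5 and 7.61 FPKM in ESK981 mice and 8.13, 6.33, 8.11, 8.13 and 5.39 FPKM in combination mice. It stood at 7.99, 7.01, 8.22, 5.76 and 8.93 FPKM in anti-PD-1 mice and 7.54, 6.06, 7.60, 7.52 and 5.49 FPKM in vehicle mice. ESK981 mice 1, 2 and 4 stood clear of all vehicle mice, mouse 5 was level with the highest of them and mouse 3 was below it, with a difference of 0.40 ± 0.16 (adjusted p = 0.0953). Gabarapl1 stood at 15.4, 17.7, 8.27, 12.4 and 11.0 FPKM in ESK981 mice and 9.68, 9.54, 10.1, 12.1 and 6.08 FPKM in combination mice. It stood at 9.87, 8.39, 10.1, 8.57 and 10.5 FPKM in anti-PD-1 mice and 11.0, 9.57, 11.4, 10.04 and 9.62 FPKM in vehicle mice. Its ESK981 group was the widest, and the difference of 0.26 ± 0.18 from vehicle missed the threshold (95% interval -0.11 to 0.62, adjusted p = 0.327). Gabarap, Gabarapl2 and Map1lc3a differed from vehicle by -0.06, 0.12 and -0.15 in ESK981 tumours. Map1lc3a, which encodes LC3A, had its largest difference in the combination, with 4.45 ± 0.732 FPKM in combination mice and 6.70 ± 1.09 FPKM in vehicle mice, or -0.54 ± 0.15 (unadjusted p = 0.00195, adjusted p = 0.119).

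By share of the summed FPKM of the 5 ATG8 genes, Gabarap led in every group, with 39.4 ± 0.588% in ESK981, 42.2 ± 3.07% in combination, 43.1 ± 2.84% in anti-PD-1 and 43.8 ± 3.87% in vehicle mice. Map1lc3b took 14.2 ± 0.686%, 13.7 ± 1.26%, 13.6 ± 1.35% and 11.3 ± 1.35% in the same order of groups (SD, n = 5 mice each). The family was thus made mostly of GABARAP-type transcripts in every group.

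Among the cargo receptors Nbr1 rose with ESK981 and the other 3 that were tested did not pass. Nbr1 (chr11:101552149-101581951, plus strand) encodes a ubiquitin-binding receptor of aggregates and peroxisomes. It stood at 14.5, 16.1, 10.5, 14.5 and 13.0 FPKM in ESK981 mice and 11.9, 10.3, 12.2, 12.2 and 7.58 FPKM in combination mice. It stood at 11.9, 11.7, 11.7, 9.69 and 12.3 FPKM in anti-PD-1 mice and 10.4, 8.81, 9.55, 10.0020 and 8.37 FPKM in vehicle mice. The lowest ESK981 mouse was just above the highest vehicle mouse, and the difference was 0.51 ± 0.14 or 1.42-fold (limma adjusted p = 0.0223). Against vehicle the combination differed by 0.18 ± 0.14 (adjusted p = 0.619) and anti-PD-1 by 0.27 ± 0.14 (adjusted p = 0.420).

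Sqstm1, which encodes p62, the receptor whose protein is degraded with its cargo, was the most abundant member. It stood at 48.5, 50.3, 40.6, 50.8 and 44.0 FPKM in ESK981 mice and 38.2, 29.3, 38.5, 43.2 and 24.4 FPKM in combination mice. It stood at 40.5, 37.8, 43.8, 33.2 and 38.3 FPKM in anti-PD-1 mice and 40.8, 34.1, 40.0, 54.2 and 37.1 FPKM in vehicle mice. ESK981 and vehicle overlapped, with a difference of 0.20 ± 0.15 (95% interval -0.12 to 0.52, adjusted p = 0.389). The combination stood -0.44 ± 0.15 from ESK981 alone, the smallest unadjusted p of any member in that comparison (0.00846), but the adjusted p was 0.538. Tax1bp1, a partner of NBR1 and p62 in clearing ubiquitin condensates, and Calcoco1, a receptor for the endoplasmic reticulum and Golgi, differed from vehicle by 0.30 and 0.18 in ESK981 tumours. Optn averaged 0.125 ± 0.0363 FPKM in ESK981, 0.205 ± 0.142 FPKM in combination, 0.253 ± 0.0805 FPKM in anti-PD-1 and 0.399 ± 0.192 FPKM in vehicle mice, too low to be tested.

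None of the 3 fusion genes was called. Stx17, the SNARE of the autophagosome, stood at 2.47, 2.45, 1.96, 2.35 and 2.39 FPKM in ESK981 mice and 2.27, 2.15, 2.51, 2.34 and 1.54 FPKM in combination mice. It stood at 2.20, 2.01, 2.22, 1.57 and 2.58 FPKM in anti-PD-1 mice and 2.26, 1.69, 1.90, 2.28 and 1.46 FPKM in vehicle mice. The groups overlapped and the difference of ESK981 from vehicle was 0.23 ± 0.14 (95% interval -0.05 to 0.52, adjusted p = 0.252). Vamp8, its lysosomal partner, averaged 21.7 ± 3.57 FPKM in ESK981 mice and 22.2 ± 3.04 FPKM in vehicle mice, a difference of -0.02 ± 0.17. Epg5, the tether, differed by 0.20 ± 0.12 (adjusted p = 0.259).

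Counts of called members moved with the scaling of the libraries. Because FPKM divide by all fragments, including the ribosomal ones that were most frequent in vehicle, libraries were also rescaled by median-of-ratios, which brought the median ESK981 minus vehicle difference over all genes to 0.01, against 0.11 as deposited. On that scale 8 members were called, 5 higher and 3 lower, in place of 4 higher and 0 lower (21.6% of the members, where 27.9% of all genes were called), and over all genes 2212 were higher and 2208 lower in place of 1418 and 860. Rb1cc1 (0.57, adjusted p = 0.000645), Nbr1 (0.38, 0.0106) and Ulk2 (0.35, 0.00897) were called on both scales, and Atg13 (0.28, 0.0541) only as deposited. Atg3 (0.36, 0.0262) and Atg2b (0.22, 0.0311) joined the higher members. Uvrag (-0.21, 0.0253), Atg101 (-0.34, 0.0458) and Atg4d (-0.40, 0.0332) were the lower ones. For the combination against vehicle the rescaled fit called Rb1cc1 higher (0.36, adjusted p = 0.0283) and Map1lc3a lower (-0.57, adjusted p = 0.0102), 2 of 37 members in a fit that called 6.61% of all genes. Estimates of ESK981 minus vehicle turned from above to below 0 with scaling for Atg14, Ambra1, Atg16l1 and Gabarapl2, none of which was called on either scale.

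**Figure D3:**
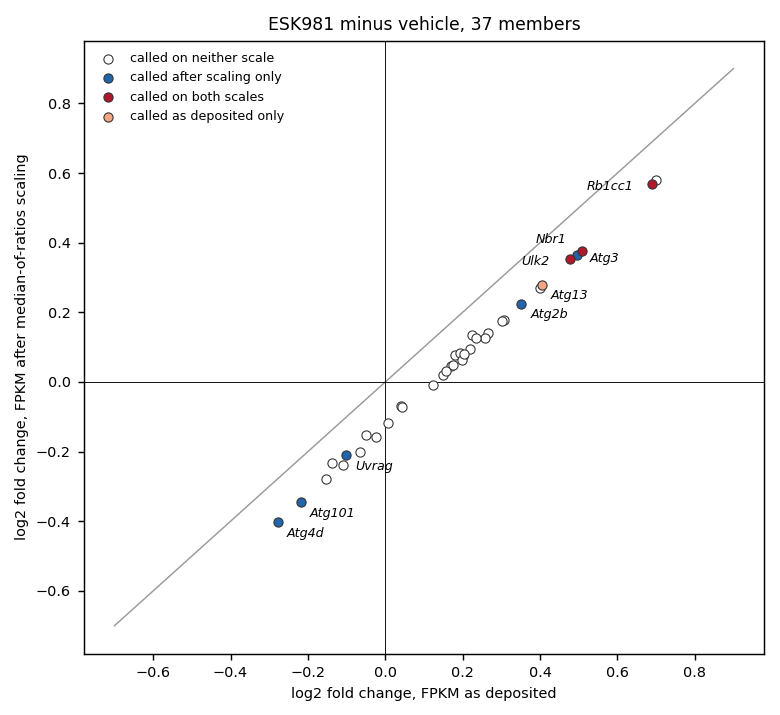
Log2 fold change of the 37 tested members for ESK981 minus vehicle from FPKM as deposited (horizontal) and after median-of-ratios scaling (vertical), with colours for the scale on which a member was called; the grey line marks equal values. All points lie below the line, Rb1cc1, Nbr1 and Ulk2 are called on both scales, and Atg101, Uvrag and Atg4d are called lower after scaling only.

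Ratios between 2 members of 1 library do not depend on any such scaling. The mouse values below divide mean FPKM over the tumours of a mouse, so scaling could shift them in mice with 2 tumours. Of 5 pairs from the same step, all chosen after values were seen and so described without a test, 3 separated every treated mouse from every vehicle mouse and 2 did not. Rb1cc1 over Atg101 ran over mice from 0.507 to 1.32 with ESK981, 0.718 to 0.928 with the combination, 0.587 to 0.719 with anti-PD-1 and 0.399 to 0.486 with vehicle. Nbr1 over Sqstm1 ran from 0.260 to 0.320 with ESK981, 0.283 to 0.350 with the combination, 0.268 to 0.322 with anti-PD-1 and 0.184 to 0.259 with vehicle. Map1lc3b over Map1lc3a ran from 1.38 to 1.63 with ESK981, 1.56 to 1.70 with the combination, 1.31 to 1.42 with anti-PD-1 and 0.859 to 1.23 with vehicle. In these 3 pairs the mice given anti-PD-1 alone were also above every vehicle mouse. By single tumours, whose ratios no scaling changes, ESK981 and vehicle overlapped in all 3. The lowest ESK981 tumours stood at 0.433, 0.249 and 1.34, and the highest vehicle tumours at 0.568, 0.289 and 1.40. The other 2 pairs overlapped by mouse as well. Ulk2 over Ulk1 ran from 0.935 to 1.44 with ESK981, 1.01 to 1.62 with the combination, 1.04 to 1.27 with anti-PD-1 and 0.922 to 1.12 with vehicle. Atg4a over Atg4d ran from 0.784 to 3.08 with ESK981, 1.13 to 3.66 with the combination, 0.852 to 2.004 with anti-PD-1 and 0.705 to 1.29 with vehicle. The 1 vehicle tumour that shares the flow cell code of the treated tumours, vehicle 5R, had ratios of 0.523, 0.235 and 1.16 in the first 3 pairs, in the order given. Those of the other 9 vehicle tumours ran from 0.384 to 0.568, from 0.149 to 0.289 and from 0.734 to 1.40.

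**Figure D4:**
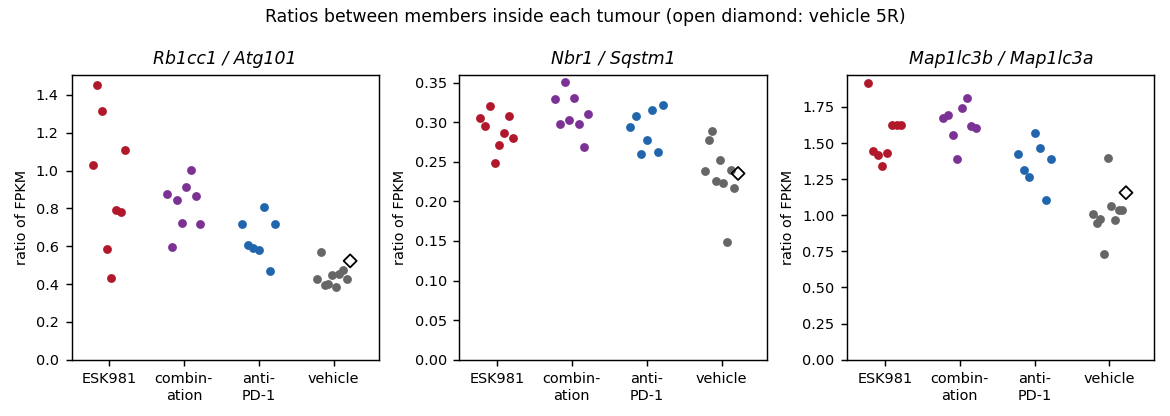
Ratio of FPKM of Rb1cc1 over Atg101, Nbr1 over Sqstm1 and Map1lc3b over Map1lc3a in each tumour, by group. Vehicle tumours hold the lowest ratios in all 3 panels, and vehicle 5R (open diamond, 0.523, 0.235 and 1.16) lies within the range of the other vehicle tumours.

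The ESK981 by anti-PD-1 interaction takes the effect of ESK981 without the antibody from its effect on top of the antibody. Its estimates were below 0 for 32 of 37 members and for 11668 of all 15846 genes tested. The median was -0.27 for the members beside -0.22 over all genes. No member was called (0.0252% of all genes called), and 9 members and 2879 genes had an unadjusted limma p under 0.05. After scaling the count of members above 0 was 15 of 37 in place of 5. The 4 members called for ESK981 alone had the estimates -0.70 ± 0.22 (Rb1cc1), -0.60 ± 0.20 (Nbr1), -0.58 ± 0.18 (Atg13) and -0.54 ± 0.20 (Ulk2), with adjusted p-values from 0.149 to 0.179. For the combination against anti-PD-1, which share a flow cell but no lane, the same genes differed by -0.013 (Rb1cc1), -0.09 (Nbr1), -0.17 (Atg13) and -0.06 (Ulk2). The 95% intervals there were -0.38 to 0.20 for Nbr1, -0.44 to 0.09 for Atg13 and -0.35 to 0.23 for Ulk2. The 4 genes were picked by their ESK981 minus vehicle difference, which the interaction subtracts, so that choice itself pushes their estimates below 0. Their interaction estimates are therefore no separate evidence of an effect of the antibody. The interaction compares the same vehicle mice and carries the same limits of the flow cell and the animal series.

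A further 35 genes of autophagy and its regulation, listed apart from the members, gave 3 calls among the 34 tested, all higher in ESK981 tumours, and none in the other 5 comparisons. That is 8.82% of the list, where 14.4% of all genes were called (8.95% higher). Fundc1, a mitophagy receptor in the outer mitochondrial membrane, averaged 7.29 ± 0.985 FPKM in ESK981 mice and 4.53 ± 0.442 FPKM in vehicle mice, a difference of 0.62 ± 0.14 (limma adjusted p = 0.00928). Trp53inp1, a p53-inducible protein that binds ATG8 proteins, averaged 6.71 ± 1.87 FPKM and 3.90 ± 1.62 FPKM in these groups, a difference of 0.78 ± 0.20 (adjusted p = 0.0159). Tmem41b, an endoplasmic reticulum scramblase needed for autophagosome formation, averaged 2.62 ± 0.305 FPKM and 1.66 ± 0.208 FPKM, a difference of 0.54 ± 0.16 (adjusted p = 0.0280). The median over this list for ESK981 minus vehicle was 0.11, the same as over all genes.

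Several library and tissue measures moved with the groups. Summed FPKM of 8 macrophage markers, all detected, ran over mice from 61.2 to 99.7 with ESK981, 69.1 to 207 with the combination, 119 to 209 with anti-PD-1 and 100.5 to 214 with vehicle. The 6 fibroblast markers ran from 37.8 to 53.5, 36.1 to 172, 60.2 to 125 and 67.1 to 487 in the same order of groups. The 7 T cell markers ran from 1.28 to 2.78, 1.94 to 12.0, 4.65 to 8.76 and 3.77 to 9.65, with each marker under a mean of 0.5 FPKM in ESK981 mice. ESK981 mice lay below every vehicle mouse in these 3 sums. They lay above every vehicle mouse in the sum of 5 red blood cell markers, which ran from 13.9 to 58.7, 6.07 to 28.5, 4.87 to 16.3 and 9.13 to 12.9 in the same order of groups. Sums of 6 endothelial markers (5.94 to 9.71 with ESK981 and 1.997 to 6.42 with vehicle) and 5 adipocyte markers (1.03 to 3.04 with ESK981 and 0.944 to 1.32 with vehicle) had higher medians with ESK981 and overlapped. Neutrophil sums (0.630 to 3.87 with ESK981 and 1.53 to 8.44 with vehicle) and muscle sums (0.737 to 26.04 with ESK981 and 0.594 to 182 with vehicle) overlapped too. The sum of 13 mitochondrially encoded genes ran from 5323 to 7054 with ESK981, 5022 to 14606 with the combination, 7233 to 30159 with anti-PD-1 and 13152 to 56463 with vehicle, so that ESK981 and vehicle mice did not overlap. The part of these measures, and of the ribosomal share, in the differences of Rb1cc1, Ulk2, Atg13 and Nbr1 was not tested.

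Single libraries carried much of the spread. ESK981 1R was the highest ESK981 tumour for 17 of 37 members, among them Rb1cc1 (6.34 FPKM), Ulk2 (7.15 FPKM), Atg13 (7.95 FPKM) and Nbr1 (16.8 FPKM). ESK981 1R and 2R were also the tumours with the least proliferation, with summed FPKM of 8 proliferation genes of 19.9 and 18.8. Without both of them Rb1cc1 (0.67) was the only member called, in a fit that called 8.77% of all genes in place of 14.4%. Ulk2, Nbr1 and Atg13 then stood at 0.41, 0.39 and 0.27, with limma adjusted p-values of 0.0702, 0.0759 and 0.179. Leaving out single mice ended the call of Ulk2 for 7 of the 20 mice, of Atg13 for 7, of Nbr1 for 4 and of Rb1cc1 for 0. Combination 5R was the lowest combination tumour for 32 of 37 members and anti-PD-1 4R the lowest anti-PD-1 tumour for 32. Vehicle 5R, the least deeply sequenced library with 35.3% of fragments on ribosomal RNA, was below all other vehicle tumours for 24 of 37 and below all ESK981 tumours for 26. It held 2.32 FPKM of Rb1cc1, 2.92 FPKM of Ulk2, 3.72 FPKM of Atg13 and 8.03 FPKM of Nbr1. Such counts of highest and lowest tumours were not made over all genes tested. In vehicle mouse 5 the median left minus right log2 difference was 0.42 over all genes, beside 0.30 for the members, so low values in 5R were not particular to the members. These 3 libraries (vehicle 5R, anti-PD-1 4R, combination 5R) had the largest ribosomal share of their groups and the lowest values of their groups for most members. Without them 8 members were called higher in ESK981 tumours, the 4 called members among them. That is 21.6% of the members in a fit that called 30.3% of all genes.

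Levels also differed between the flanks of single mice. In 13 mice with a tumour on each flank, anti-PD-1 mouse 4 held the largest gap of any mouse for 17 of 37 members, with a median left minus right difference of 0.46 on the log2 scale for the members and 0.47 for all genes tested. The gap was largest in vehicle mouse 5 for 6 members (median 0.30, beside 0.42 for all genes) and in ESK981 mouse 1 for 5 (median -0.14, beside 0.10 for all genes). Between mice of a group the median SD of the members on the log2 scale was 0.18 for ESK981, 0.31 for the combination, 0.15 for anti-PD-1 and 0.20 for vehicle, beside 0.21, 0.34, 0.24 and 0.26 for all genes tested. By group mean ESK981 was the highest of the 4 groups for 22 of 37 members (59.5%, and 41.7% of all genes tested), and vehicle was the lowest for 19 (51.4%, and 47.1% of all genes).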

How the data were processed

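Total RNA of the tumours was depleted of ribosomal RNA and sequenced on an Illumina HiSeq, per the labels. The authors deposited FPKM; the submitters' processing notes name STAR, featureCounts and mm10. No source used here gives versions, annotation or use of strand, so 13 members whose exons overlap an antisense gene (Rb1cc1, Becn1, Map1lc3b, Gabarapl1 and Sqstm1 among them) are uncertain. Low FPKM were whole multiples of 1 fragment (100% of values within 0.01), which gave the depths. FPKM depend on the library total, so limma 3.58.1 in R 4.3.3 was used (trend, two-sided, Benjamini-Hochberg, 16 residual and 5.07 prior degrees of freedom) on log2(FPKM + 0.5), which understates changes of low genes, averaged per mouse, for genes at 0.5 FPKM in at least 5 tumours. All 48795 genes entered the filter, and all value columns matched a sample. The mouse is the replicate (5 per group). Alternatives changed pseudocount, filter, scaling, unit (single tumours with statmod 1.5.0), flow cell term and samples. Scripts were tested on simulated data. Members and lists were chosen with earlier results of these data known. Values in every mouse are given for each called member and for Ulk1, Becn1, Atg7, Map1lc3b, Gabarapl1, Sqstm1 and Stx17, and other members by means and counts. Figures and tables used Python 3.11.15. Some epithelial markers are not reported here.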

Additional observations from a re-analysis of the deposited data

Results flagged for a closer look

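Within groups of 5 mice, 1 mouse stood apart from the other 4 for 14 of 152 gene and group pairs, its gap to the nearest other mouse exceeding 0.71 of the range of the group. Chance alone gives about 1 in 20. Combination mouse 5, whose only tumour had the largest ribosomal share of its group, was the low mouse 6 times: Becn1 at 4.51 FPKM (8.18 to 9.02 in the other 4), Atg9a at 1.18 (2.03 to 2.30), Wipi2 at 4.03 (5.61 to 6.14), Atg4b at 1.70 (2.49 to 2.65), Atg16l1 at 1.47 (2.98 to 3.46) and Gabarap at 14.0 FPKM (22.9 to 26.6).

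Anti-PD-1 mouse 4 was low for Ambra1 at 5.55 FPKM (6.54 to 6.93 in the other 4), Atg3 at 7.22 FPKM (9.83 to 10.5) and the called member Nbr1 at 9.69 FPKM (11.7 to 12.3). Vehicle mouse 5 was low for Atg101 at 5.01 FPKM (7.44 to 7.63), Atg4c at 1.19 FPKM (1.87 to 2.02) and Atg10 at 0.745 FPKM (1.08 to 1.15). Of the other 2 pairs, Gabarapl2 was high in anti-PD-1 mouse 5 at 11.7 FPKM (8.01 to 9.05), and Stx17 was low in ESK981 mouse 3 at 1.96 FPKM (2.35 to 2.47).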

How the results depend on the processing

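For ESK981 minus vehicle 4 members (10.8%) were called under pseudocounts of 0.1 and 1 (14.1% and 14.7% of all genes called) and robust variances (14.5%). The count was also 4 with a filter of 1 FPKM in 10 tumours (16.8%) and with no filter (4.41% of 32048 genes). It was 5 with single tumours (20.7% of all genes called). The count was 8 with scaling (27.9% of all genes) and 14 with a flow cell term (36.5%, resting on vehicle 5R alone, with a median over all genes of 0.60). It was 8 without the 3 libraries combination 5R, anti-PD-1 4R and vehicle 5R (30.3%), and 1 without ESK981 1R and 2R (8.77%). Combined with scaling, an alternative chosen after seeing the data, leaving out these tumours gave 9 (31.1%) and 6 (24.1%). Leaving out each of the 20 mice in turn gave 1 to 7, with 1 without ESK981 mouse 1, 2 or 4 or vehicle mouse 2, 2 without ESK981 mouse 5 or vehicle mouse 3 or 5, and 7 without ESK981 mouse 3 (6.65% to 23.9% of all genes over the 20 fits). Rb1cc1 was called under all 32 alternatives (log2 fold change 0.50 to 0.96), while Nbr1 missed the threshold under 6, Ulk2 under 8 (adjusted p up to 0.0759 and 0.0702) and Atg13 under 11 (up to 0.512). For the combination minus vehicle (0 called), scaling gave 2 (6.61% of all genes), the flow cell term 12 (28.2%) and leaving out those 3 libraries 3 (9.22%). Leaving them out with scaling gave 2 (5.68%), and scaling without tumours ESK981 1R and 2R gave 4 (8.25%). For anti-PD-1 minus vehicle (0 called) the flow cell term gave 10 (27.7% of all genes) and leaving out the 3 libraries 4 (11.2%). Leaving them out with scaling gave 4 (6.36%), and scaling without tumours ESK981 1R and 2R gave 2 (2.56%). For the interaction (0 called) the counts were 9 with the flow cell term (25.5%), 4 without the 3 libraries (4.58%) and 2 with scaling added (3.89%). Combination minus anti-PD-1 and combination minus ESK981 stayed at 0 under all of these, and leaving out a mouse left the other 5 comparisons at 0. For ESK981 minus vehicle Atg7 turned to 0.44 with the flow cell term, and Ulk1, Gabarapl1 and Sqstm1 turned to -0.033, -0.14 and -0.078 with scaling and without ESK981 1R and 2R. The cause was not tested. No paired analysis was possible because the labels give no replicate numbers shared between groups.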
